A study of Triticum aestivum with 8 samples.

Results

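Leaf transcripts of 2 bread wheat cultivars, C306 and WL711, were compared after the same drought. The comparison set the 2 arrays of droughted C306 against the 2 arrays of droughted WL711, 4 of the 8 arrays in the series, over the 61179 probe sets that are not Affymetrix controls. All 8 arrays carried RNA from leaves of 48-day-old plants. In the droughted plants of both cultivars watering had stopped at day 27 of age, 21 days earlier, and the watered plants of both cultivars served as controls. The submitters called the 2 arrays of each group biological replicates, and whether each came from 1 plant or a pool was not given in the sources used here.

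C306 is an old tall Indian wheat that breeders use as a drought-tolerant reference, and WL711 is a semi-dwarf wheat that is used as a susceptible one. Leaves that lose water close their stomata, fix less carbon, and adjust sugars, detoxification and protective proteins. Cultivars of a species also differ in their transcripts without any stress. A wheat probe set holds short probes designed on expressed sequences, and bread wheat carries 3 related genomes, so a probe set may read several copies of a gene. A cultivar difference read by such probes can come from the amount of the transcript or from how well the probes match that cultivar's copy. These 2 cannot be told apart here. In a whole leaf, fewer cells of a type and less RNA per cell cannot be told apart either.

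The deposited values were log2 signals from which the median over the 8 arrays had been subtracted for each probe set. Each value below is such a centred value, and 0 is the middle of the 8 arrays rather than absence. No level of a transcript, and no check of the leaf label by the level of leaf markers, was possible. Replicates differed by a median of 0.144 in droughted C306 and 0.162 in droughted WL711. One array, the first replicate of watered WL711, had a wider spread of values than the rest (interquartile range 0.482 against 0.221 to 0.302). Hybridisation controls, which are spiked in after labelling, were low on that array (-0.71), on the second replicate of watered C306 (-0.95) and on the first of droughted C306 (-0.89), and stood at 0.020 to 0.12 elsewhere. With a block for these 3 arrays, 2475 probe sets were called between the droughted cultivars in place of the 4120 given below, and 2408 were among those 4120. The 15 probe sets for actin, elongation factor, GAPDH and ubiquitin that Affymetrix places as wheat controls differed between the droughted cultivars by -0.41 to 0.13.

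In droughted leaves 4120 of 61179 probe sets, 6.73%, differed between the cultivars at a limma adjusted p under 0.05, the threshold used throughout. C306 was higher in 2570 of them (4.20%) and lower in 1550 (2.53%). The median absolute difference was 1.19 (log2) among those called and 0.214 over all probe sets. The smallest difference that passed was 0.54. Differences of at least 4, a 16-fold ratio, were called in 109 probe sets higher in C306 and 59 lower, and of at least 6 in 24 and 16. Over all probe sets the median signed difference was -0.065. Both C306 arrays lay above both WL711 arrays in 14429 probe sets (23.6%) and below them in 21526 (35.2%). Groups that did not overlap thus made up 58.8% of all probe sets, so such separation alone does not mark out a probe set. Probe sets that may read several sequences were called more often: 9.26% of those ending in _x_at and 9.26% of those ending in _s_at passed, against 6.12% of those with the plain ending.

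**Figure D1:**
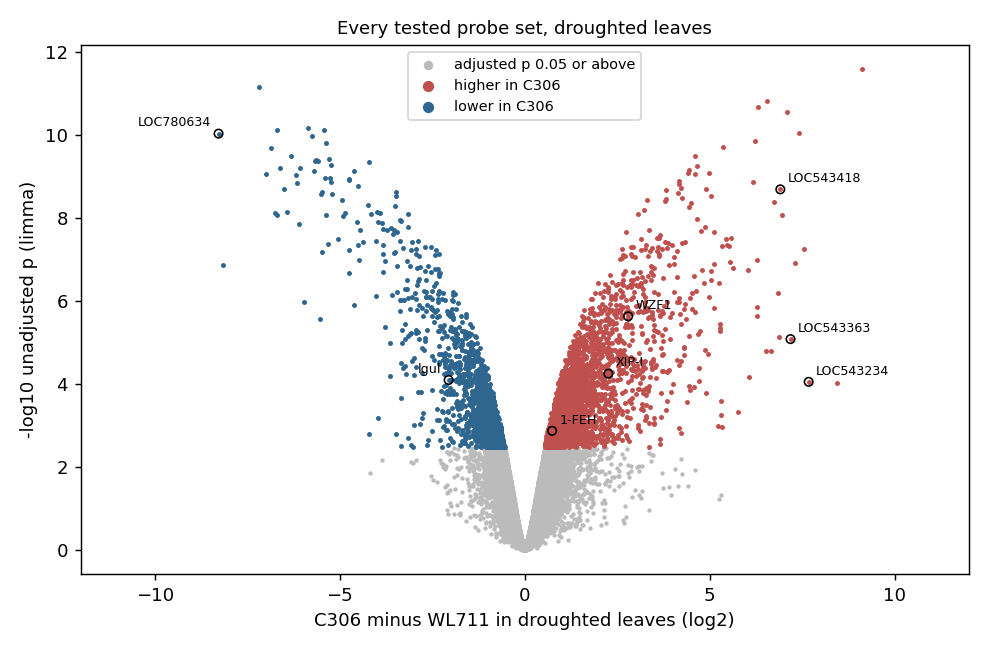
Difference between droughted C306 and droughted WL711 (log2, horizontal axis) against the negative log10 of limma's unadjusted p (vertical axis), 1 point for each of the 61179 probe sets. The 2570 probe sets called higher in C306 are red and the 1550 called lower are blue, and circles mark some of the genes described in the text.

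Of the 61179 probe sets, 1273 were paired with 1 of 771 genes by the platform annotation. Of these genes, 102 with 200 probe sets had a descriptive name, and 12 of the 102 had at least 1 probe set that passed. In 4 genes it was higher in droughted C306 (WZF1, XIP-I, 1-FEH and DMAS1). In 8 it was lower (lgul, RPL9, H2A-9, rbcl, TaPrx1, Pgk-1, GAPN and LTP3). These 12 genes had 17 called probe sets of 200, 5 higher and 12 lower, where 6.73% of all probe sets were called, 4.20% higher and 2.53% lower. With the block for the 3 arrays with low hybridisation controls, the calls of RPL9, Pgk-1, GAPN, LTP3, 1-FEH and DMAS1 were lost (limma adjusted p 0.10, 0.0585, 0.071, 0.072, 0.082 and 0.054), as was 1 of the called probe sets each of TaPrx1 and H2A-9. Judged by 1 probe set per gene, 3 genes were higher and 5 lower, and the median difference of the 102 genes was -0.091 against -0.065 over all probe sets.

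WZF1, a zinc finger protein of the family that binds DNA, had the largest difference among the named genes. Its centred value was 1.33 and 1.58 on the C306 drought arrays and -1.33 and -1.36 on the WL711 drought arrays. Both C306 arrays stood well above both WL711 arrays, by more than the distance between replicates. The difference was 2.80 ± 0.26 (limma SE, n = 2 arrays a cultivar), a 6.96-fold ratio, with a limma adjusted p of 0.00036. In watered leaves the same probe set was also higher in C306, by 4.03. The other 2 members of the transcription and chromatin list, Hmgb3 and TBP1, differed by 0.29 and 0.15 and did not pass.

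XIP-I encodes a protein inhibitor of fungal xylanases, enzymes with which fungi break down the plant cell wall. Its plain probe set read 1.32 and 1.18 in droughted C306 against -1.31 and -0.71 in droughted WL711. A further probe set read 1.42 and 1.18 against -1.30 and -0.77. The 2 probe sets gave close differences, 2.26 ± 0.31 and 2.33 ± 0.27 (limma adjusted p 0.0033 and 0.0014). The groups were apart in both. Watered C306 was higher too, by 2.01 and 2.07 (limma adjusted p 0.0055 and 0.0023). Among the other 4 genes of the defence list, TaGlu1a, a beta-glucosidase that releases stored defence compounds in cereals, read 2.75 and 0.63 in C306 against -1.54 and -0.37 in WL711. The C306 arrays lay above the WL711 arrays, but they were far apart from each other, and the difference of 2.65 ± 0.71 missed the threshold (limma adjusted p 0.063). Without C306 drought replicate 2 it was 3.70 with a limma adjusted p of 0.019. Glc1, a beta-glucanase, differed by -0.74 (limma adjusted p 0.057). It passed in 7 of 18 alternative settings, among them the block for low hybridisation controls (-0.88, limma adjusted p 0.036). PR5, a thaumatin-like protein, and WGA2, a chitin-binding lectin, differed by 0.09 and 0.07.

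lgul, the glyoxalase I that detoxifies methylglyoxal with glutathione, was the lowest of the named genes in droughted C306. One probe set read -1.64 and -0.65 in C306 against 0.94 and 0.87 in WL711, and the other read -1.47 and -0.90 against 0.65 and 0.64. In both, the WL711 arrays were close together and the C306 arrays were spread but lower. The differences were -2.05 ± 0.29 and -1.83 ± 0.20, ratios of 4.15-fold and 3.55-fold (limma adjusted p 0.0042 and 0.00093). Watered C306 was lower too, at -1.39 and -1.29 (limma adjusted p 0.021 and 0.0053).

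TaPrx1 belongs to the same redox and detoxification list. Of its 4 probe sets 3 were called lower in C306, at -1.07, -1.02 and -0.77. The other stood at -0.64 (limma adjusted p 0.087). In watered leaves the plain probe set was lower too, at -0.88 (limma adjusted p 0.026). The other 2 called ones, at -0.72 and -0.32, did not pass there. Under drought the plain probe set read -1.07 and -0.49 in C306 against 0.27 and 0.22 in WL711. The 2 C306 arrays were thus well apart from each other, though both lay below WL711. Its call was lost without C306 drought replicate 1 (-0.73, limma adjusted p 0.12) and without either WL711 drought array (0.11 and 0.094). Of the other 5 genes of that list none passed by its representative probe set. GSTZ1, a glutathione transferase, differed by 0.54 (limma adjusted p 0.088), Trx-M, a chloroplast thioredoxin, by -0.48, and CAT1, a catalase, by -0.03. Counting representatives, 2 of 7 genes of the list were lower and 0 higher, with a median of -0.026 against -0.091 for all 102 named genes.

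**Figure D2:**
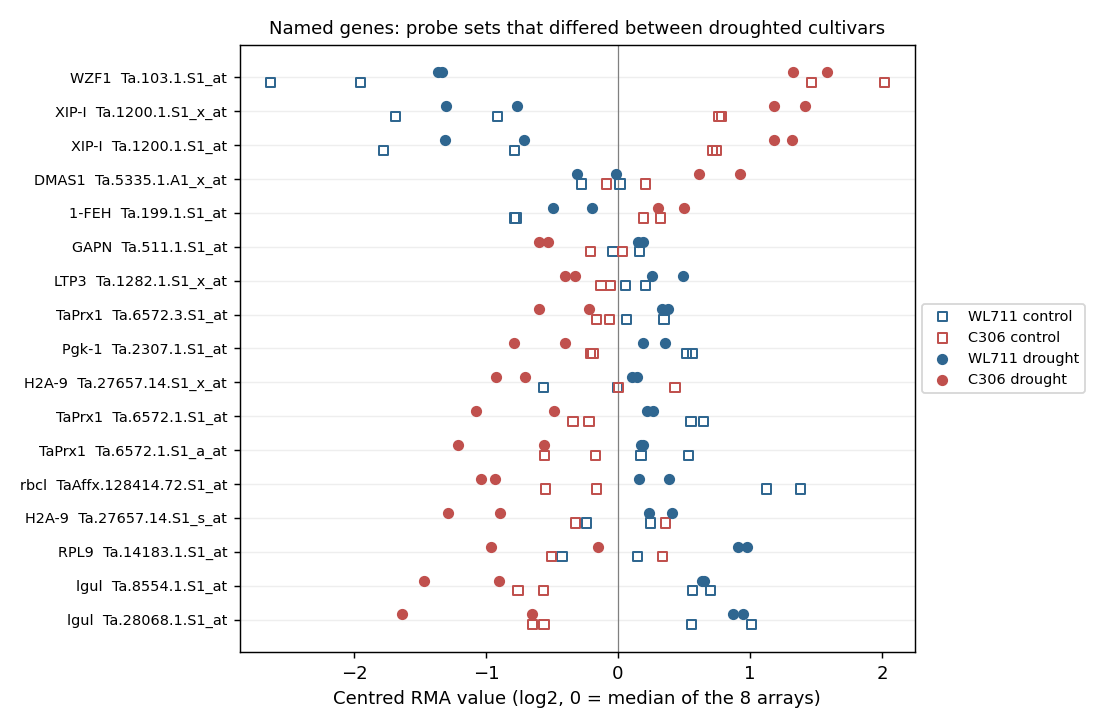
Centred value (log2, horizontal axis) on each of the 8 arrays for the 17 called probe sets of the 12 named genes, ordered by the drought difference. Filled circles are drought arrays and open squares control arrays, red for C306 and blue for WL711. From WZF1 at 1.33 and 1.58 against -1.33 and -1.36 down to lgul, no filled red circle overlaps the filled blue ones in any row. This follows from the choice of rows, since no called probe set overlapped. Of all probe sets 58.8% did not overlap either.

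The genes of carbon metabolism moved in different directions. 1-FEH, an exohydrolase that frees fructose from fructan, the reserve sugar of wheat stems and leaves, read 0.50 and 0.30 in droughted C306 against -0.49 and -0.20 in droughted WL711. It was higher in C306 by 0.75 ± 0.16, a 1.68-fold ratio (limma adjusted p 0.029). Watered C306 was higher too, by 1.04 (limma adjusted p 0.0056). Under drought the related 6-FEH differed by -0.14 and the invertase IVR1 by -0.09, and neither passed. Pgk-1 and GAPN, both of the glycolysis and hexose phosphate list, stood lower in C306. Phosphoglycerate kinase (Pgk-1) read -0.78 and -0.40 in C306 and 0.36 and 0.19 in WL711, a difference of -0.87 ± 0.17 (limma adjusted p 0.018). The non-phosphorylating glyceraldehyde phosphate dehydrogenase, GAPN, which makes NADPH in the cytosol, read -0.60 and -0.53 against 0.19 and 0.15, a difference of -0.74 ± 0.15 (limma adjusted p 0.024). The 2 drought arrays of each cultivar were close together for GAPN and further apart for Pgk-1. In watered leaves Pgk-1 differed by -0.74 (limma adjusted p 0.026) and GAPN by -0.15, which did not pass.

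The drought calls of these genes depended on the number of arrays. The call of 1-FEH and that of GAPN was lost when any 1 of the 4 drought arrays was left out (limma adjusted p 0.057 to 0.22 and 0.10 to 0.17). That of Pgk-1 was lost in 3 of those 4 cases, being kept without C306 drought replicate 2 (0.023). The other 3 genes of the glycolysis list, FBP, TaPMM and PFK, differed by -0.43, 0.15 and 0.06. None of the 4 starch genes passed. They lay between -0.35 for GBSS-I, the granule-bound starch synthase, and 0.30 for BMY1.

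DMAS1, the enzyme that completes deoxymugineic acid, with which grasses take up iron, was higher in droughted C306 by 1 of its 3 probe sets. That probe set read 0.62 and 0.92 in C306 and -0.02 and -0.31 in WL711, a difference of 0.93 ± 0.19 (limma adjusted p 0.025). The plain probe set gave 0.87, with 0.85 and 0.87 in C306 against -0.09 and 0.08 in WL711, and missed the threshold (limma adjusted p 0.090). All 3 differences were above 0, down to 0.42. In watered leaves the called probe set differed by 0.19 and did not pass. Its drought call was lost without any 1 of the 4 drought arrays (limma adjusted p 0.063 to 0.16). TaPCS1, which makes the metal-binding phytochelatins, differed by 0.45 and did not pass.

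For photosynthesis the cultivars differed little. The representative probe sets of the 5 genes of that list lay between -0.27 and 0.06, and 0 passed. PsbO and PsbP, proteins of the oxygen-evolving complex, differed by -0.27 and -0.26. rbcl, the large subunit of Rubisco, was covered by 28 probe sets, of which 1 passed and 8 were above 0. The probe set that passed read -1.04 and -0.94 in C306 against 0.16 and 0.38 in WL711, a difference of -1.26 ± 0.18 (limma adjusted p 0.0043). In watered leaves that probe set was lower in C306 too, at -1.61 (limma adjusted p 0.0012). Under drought the other 27 reached at most 0.10 upward, and the representative stood at 0.06. One probe set of 28 does not describe the gene.

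RPL9, a protein of the large ribosomal subunit, read -0.96 and -0.15 in droughted C306 against 0.91 and 0.98 in droughted WL711. The WL711 arrays agreed closely and both C306 arrays lay below them, with a difference of -1.501 ± 0.34 (limma adjusted p 0.035). The watered cultivars differed by 0.06. The RPL9 call was lost without C306 drought replicate 1 (-1.10, limma adjusted p 0.24) and without either WL711 drought array. RPS29, of the small subunit, differed the other way, by 1.85 ± 0.47, and missed the threshold (limma adjusted p 0.052). It passed in 9 of 17 alternative settings. With the block for low hybridisation controls it differed by 1.64 under drought (limma adjusted p 0.14) and by 2.99 when watered (0.0087). The other 5 genes of the translation list lay between -0.13 and 0.21.

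Histone H2A-9 was read by 6 probe sets. The 2 that passed stood at -1.41 and -0.94, and the other 4 ran from -1.02 to 0.14. The stronger of the 2 read -1.29 and -0.89 in C306 and 0.24 and 0.41 in WL711, with no overlap (limma adjusted p 0.015). Its call was lost without C306 drought replicate 1 and without either WL711 drought array (limma adjusted p up to 0.13). None of the 5 histone genes passed by its representative probe set. Their median was -0.34, the lowest being H2A-9 at -0.42 and the highest H2A-2 at 0.26. LTP3, a lipid transfer protein, passed on 1 of 2 probe sets. That one read -0.40 and -0.32 against 0.26 and 0.50, a difference of -0.74 ± 0.15 (limma adjusted p 0.023), while the other stood at -0.04. The call was lost when any 1 of the 4 drought arrays was left out (limma adjusted p 0.056 to 0.17).

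Protective proteins classically tied to water loss showed no called difference. None of the 10 probe sets of the 5 dehydrin, Em and LEA genes passed. By representative, COR410, a dehydrin, differed by 0.21, Rab15, another dehydrin, by -0.09, LEA1 by -0.13, and the Em genes EM and EMH2 by -0.22 and -0.05. The 2 chaperone genes, hsp16.9A and FKBP70, differed by -0.13 and -0.37. None of the 3 gibberellin oxidases Ta20ox1A, Ta20ox1B and Ta20ox1D, which make precursors of active gibberellin, passed. They stood at -0.19 to -0.27. All 6 tubulin genes lay below 0, from -0.08 for Tubb4 to -1.05 for tubb2, and 0 of their 10 probe sets passed. For tubb1, at -0.49, the sign turned (0.0041) without C306 drought replicate 2. All 4 thionin genes were also below 0, at -0.21 to -0.14, and 0 passed. Of the 15 genes for grain storage proteins and grain protease inhibitors, which mark seed tissue, 0 passed, with a range of -0.62 to 0.22 and a median of -0.087.

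The largest annotated differences belonged to genes that the gene table lists only by a LOC number. Of 669 such genes, 89 had a called probe set, and of their 1073 probe sets 71 were higher in C306 and 41 lower, beside 4.20% and 2.53% of all probe sets. Their median difference by representative was 0.0028. No role is given to them here, since the tables used do not describe their products.

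In 1 set of these genes the C306 drought arrays stood far above everything else. LOC543234 read 8.04 and 6.48 in droughted C306 and -0.54 and -0.30 in droughted WL711. The 2 C306 arrays were 1.56 apart, and both were more than 6 above WL711. The difference was 7.68 ± 1.12, a 205-fold ratio (limma adjusted p 0.0044). LOC543363 read 6.37 and 5.13 against -1.37 and -1.50, a difference of 7.19 ± 0.77 (limma adjusted p 0.00089). LOC543313 read 5.69 and 6.10 against -0.13 and -0.22, a difference of 6.07 ± 0.85 (limma adjusted p 0.0037). LOC543233 gave 6.27 ± 0.57 on its first probe set and 6.66 ± 0.77 on its second. The calls of LOC543234 and LOC543313 depended on how limma moderates the variance: both were lost with robust moderation, with or without a trend (limma adjusted p up to 0.28 and 0.23). That of the first LOC543233 probe set was lost with trend and robust moderation (0.052). Along the chromosomes of assembly IWGSC CS RefSeq v2.1, LOC543234 and LOC543233 are direct neighbours, with 0 genes between them. LOC543472 and LOC542855, at 1.28 and 1.75, are the other pair of direct neighbours among the called genes.

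The control arrays of C306 disagreed on those same genes. For LOC543234 they read -0.31 and 4.02 (replicates 1 and 2), for LOC543363 0.16 and 2.64, and for LOC543313 -0.37 and 3.09. In each of the 3, control replicate 2 lay above control replicate 1 and below both C306 drought arrays. In watered leaves none of the 3 passed between cultivars, at 1.86, 2.31 and 1.36. The drought difference exceeded the watered one by 5.82, 4.88 and 4.71, but was not shown to differ from it (limma adjusted p 0.27, 0.19 and 0.25). Without C306 control replicate 2 the difference between the 2 differences was 7.99 for LOC543234, 6.12 for LOC543363, 6.44 for LOC543313 and 6.93 for LOC543233. That array was singled out after its values on these genes were seen, and without it 1 watered C306 array remained. These sizes are therefore a description only. C306 control replicate 2 also carried the lowest hybridisation controls. With the block for low hybridisation controls, the difference between the 2 differences passed for LOC543233 and LOC543363 (limma adjusted p 0.0038 and 0.049) and missed the threshold for LOC543234 and LOC543313 (0.34 and 0.42). LOC543363 then also passed in watered leaves, at 2.31 (limma adjusted p 0.0031).

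A different set of LOC genes was apart between the cultivars whatever the watering. LOC543418 read 3.12 and 3.07 in droughted C306 against -4.04 and -3.59 in droughted WL711, and 3.20 and 3.34 against -3.07 and -3.94 in watered leaves. Drought and watered arrays of a cultivar lay together, and the drought difference was 6.91 ± 0.27 (limma adjusted p 2.62e-06). LOC543111 differed by 3.81 under drought and 3.78 when watered, and LOC780692 by 3.79 and 4.59. On the lower side LOC780634 read -4.26 and -4.43 in droughted C306 against 3.98 and 3.88 in droughted WL711, a difference of -8.27 ± 0.23, or 309-fold (limma adjusted p 5.78e-07). Its other 2 probe sets gave -6.84 and -6.99. LOC780641 and LOC543103 stood at -6.69 and -5.86 under drought and at -6.004 and -5.55 when watered.

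**Figure D3:**
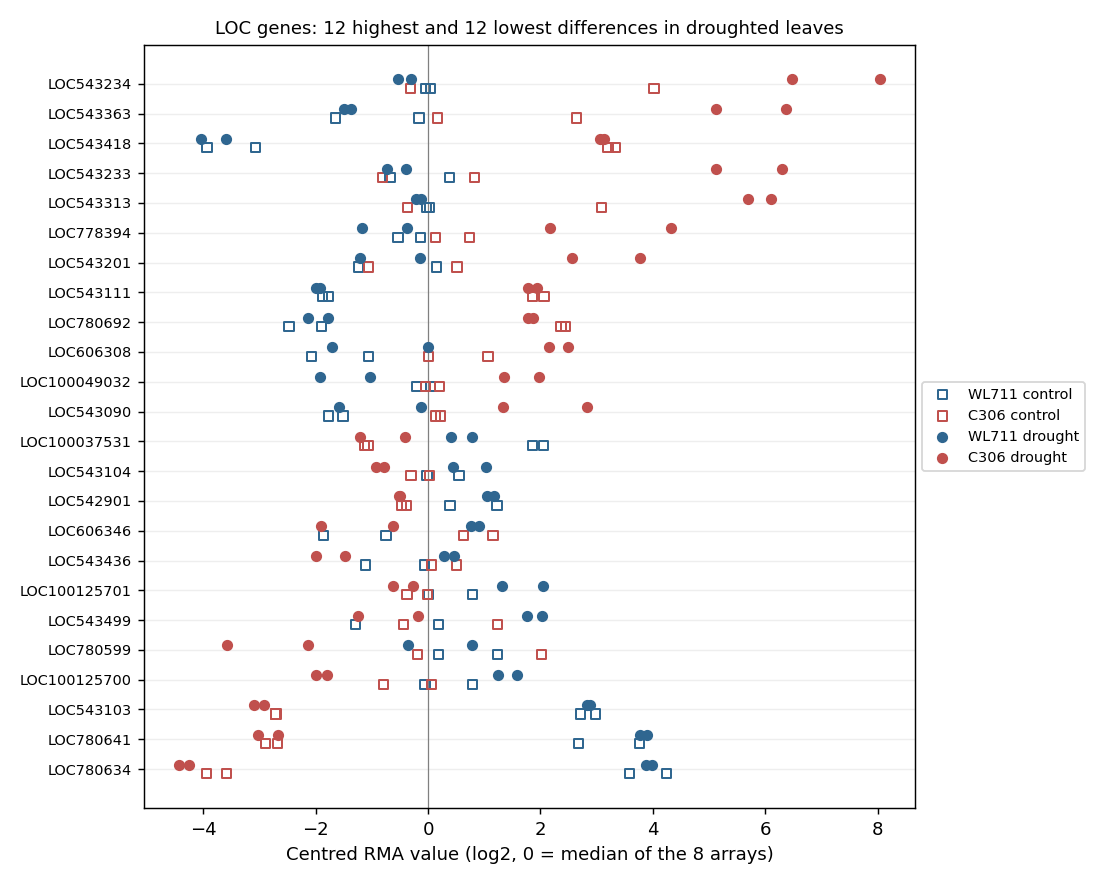
Centred value (log2, horizontal axis) on each of the 8 arrays for the 12 LOC genes with the highest and the 12 with the lowest drought difference among those called, 1 probe set per gene. In LOC543418 and LOC780634 the open squares of a cultivar sit with its filled circles, while in LOC543234 the filled red circles, at 8.04 and 6.48, lie beyond all other arrays and one open red square lies at 4.02.

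Of the remaining genes among the 12 highest, LOC778394 differed by 4.02 and 5.12 on its 2 probe sets, LOC543201 by 3.85, LOC606308 by 3.17, LOC100049032 by 3.14 and LOC543090 by 2.94. In watered leaves LOC606308 was also called higher in C306, by 2.10 (limma adjusted p 0.048). The representative probe sets of the others had no call there. LOC100049032 was called under drought on 1 of its 3 probe sets, and their drought differences ran from -0.14 to 3.14. The called one read 1.98 and 1.34 in droughted C306 and -1.04 and -1.92 in droughted WL711. On its 4 control arrays it lay between -0.20 and 0.21. The watered arrays lay between the droughted groups, but the drought difference was not shown to differ from the watered one (limma adjusted p 0.081). The calls rested on single arrays in part: LOC543090 lost its call without C306 drought replicate 1 or WL711 drought replicate 1 (limma adjusted p 0.071 and 0.072), LOC543201 without C306 drought replicate 2 or WL711 drought replicate 2 (0.060 and 0.084), LOC606308 without C306 drought replicate 1 or WL711 drought replicate 2 (0.089 and 0.064), and LOC778394 without WL711 drought replicate 2 (0.051). LOC543201 and LOC606308 also lost it with robust moderation and no trend (0.061 and 0.054).

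Among the other 9 of the 12 lowest, LOC100125700 read -1.79 and -1.99 in droughted C306 against 1.25 and 1.59 in droughted WL711. Its 4 control arrays lay between -0.80 and 0.79, within the span of the 4 drought arrays. The drought difference was -3.31 ± 0.33 (limma adjusted p 0.00063) and the watered one -0.74, which did not pass, and the 2 were not shown to differ (limma adjusted p 0.14). The remaining 8 lay between -3.06 for LOC780599 and -1.40 for LOC100037531 under drought. Of these 8, LOC100037531 and LOC542901 were also lower in watered C306, at -3.06 and -1.24 (limma adjusted p 0.00020 and 0.016). The call of LOC100037531 was lost without C306 drought replicate 2 or WL711 drought replicate 1 (limma adjusted p 0.054 and 0.10), and those of LOC543104 and LOC543436 without WL711 drought replicate 1 (0.055 and 0.059). For LOC780599 and LOC543499 the call was lost when any 1 of the 4 drought arrays was left out (limma adjusted p 0.073 to 0.24 and 0.057 to 0.26). LOC606346 was lower in droughted C306, by -2.10, and higher in watered C306, by 2.19, and both passed. The test of that turn missed the threshold (limma adjusted p 0.087), and the drought call was lost in 3 of 4 cases with 1 drought array left out (limma adjusted p up to 0.15).

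Among the probe sets without a gene, the 2 highest and the 2 lowest were as follows. TaAffx.113846.1.S1_s_at read 4.75 and 4.63 in droughted C306 against -4.61 and -4.25 in droughted WL711. Its difference of 9.12 ± 0.16 was the largest of all probe sets. In watered leaves it was also higher in C306, by 8.61 (limma adjusted p 2.58e-07). Under drought Ta.30827.1.A1_x_at read 8.22 and 8.29 against -0.07 and -0.34, a difference of 8.46 ± 1.24 (limma adjusted p 0.0046). That call was lost with robust moderation, with or without a trend (limma adjusted p up to 0.37). Its C306 control arrays stood at -0.05 and 4.98, the same split as in LOC543234. On the lower side Ta.24954.1.S1_at and Ta.6793.1.A1_at differed by -7.18 ± 0.15 and -6.74 ± 0.31. Each of the 2 was also lower in watered C306, at -6.58 and -6.17.

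The second comparison asked how much of the droughted cultivar difference was there in watered leaves, on the other 4 arrays. There 6714 probe sets (11.0%) passed, 4080 higher in C306 (6.67%) and 2634 lower (4.31%). In both conditions and in the same direction 2350 passed, 1504 higher and 846 lower. These made up 58.5% of the higher and 54.6% of the lower drought calls, and 36.9% and 32.1% of the corresponding watered calls. Opposite calls were found for 23 probe sets. Of the 4120 drought calls 93.1% had the same sign in watered leaves, against 71.0% of all probe sets. Across the 61179 probe sets, which are not independent and share 1 normalization, Pearson's r between both differences was 0.686 and Spearman's rho 0.526.

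The 1747 probe sets called under drought and not in watered leaves were mostly smaller differences of the same sign. Those higher in C306 numbered 1052, with a median of 1.11 under drought and 0.40 in watered leaves, and 909 of them were above 0 in both. Those lower numbered 695, with medians of -0.91 and -0.35, and 575 were below 0 in both. A call in one condition and not in the other does not show that the conditions differ. The test of the difference itself passed in 25 of 61179 probe sets (0.0409%), with C306 relatively higher under drought in 19 (0.0311%) and relatively lower in 6 (0.00981%). Of the 25, 18 were also called under drought. Of these 18, 15 were higher in droughted C306 and 3 lower, 12 had opposite signs in the 2 conditions, and 16 had no gene. At an unadjusted p under 0.05, 1291 of the 4120 differed between conditions.

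**Figure D4:**
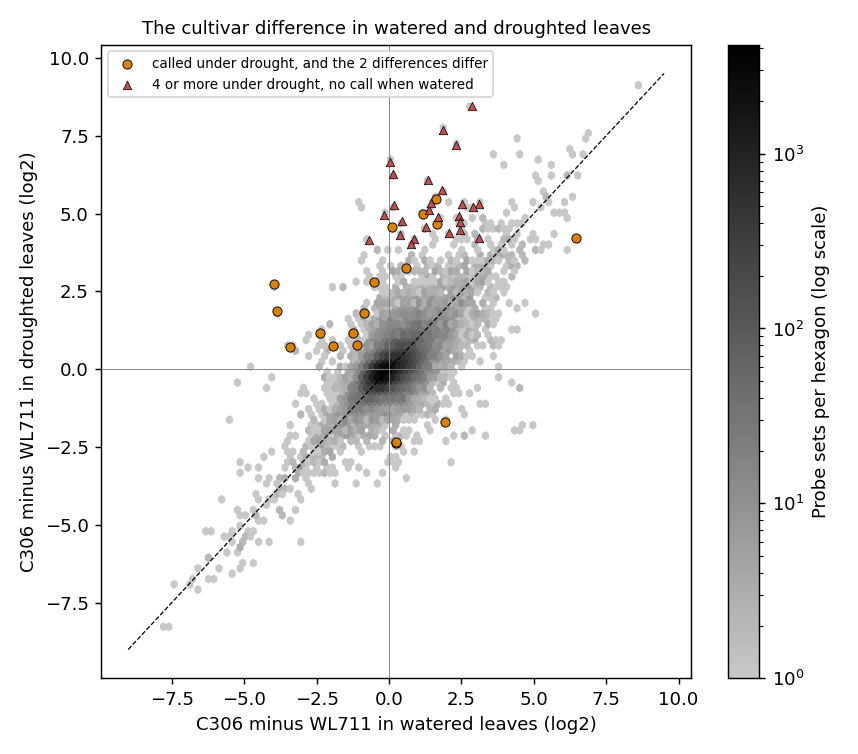
Cultivar difference in watered leaves (log2, horizontal axis) against that in droughted leaves (log2, vertical axis), shaded by the number of probe sets per hexagon on a log scale, with a dashed line where both are equal. Orange circles are the 18 probe sets called under drought whose 2 differences differ. Triangles mark the 27 that were higher by at least 4 under drought with no call in watered leaves, except where already an orange circle.

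The largest drought differences were not alike on both sides. All 59 probe sets that were lower in C306 by at least 4 were also called lower in watered leaves, with medians of -5.37 under drought and -5.11 when watered. Of the 109 that were higher by at least 4, 82 were called higher in watered leaves (75.2%), and 27 had no call. In 25 of those 27, and in 68 of all 109, both C306 drought arrays lay above both C306 control arrays. That share was not counted over all probe sets. In 22 of the 27 (81.5%) C306 control replicate 2 was also at least 1 above control replicate 1, by a median of 2.42 over the 27. The gap was found in 15 of the 82 with a watered call (18.3%), in 37 of all 109 (33.9%), in 3 of the 59 lower ones and in 790 of all 61179 probe sets (1.29%). The 27 had no watered call by choice, and a wide spread between control arrays itself makes such a call less likely. Choosing a large drought difference without a watered call also favours droughted C306 above watered C306. The 25 of 27 and the share of 81.5% are therefore a description only.

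LOC543150 and LOC543248 were the 2 annotated genes with a drought call whose drought difference differed from the watered one. LOC543150 read 1.78 and 0.52 in droughted C306 against -1.55 and -1.62 in droughted WL711, and -2.06 and -0.52 against 3.23 and 2.14 in watered leaves. C306 was thus the higher cultivar under drought, by 2.73, and the lower one when watered, at -3.97, and the difference between the 2 was 6.70 (limma adjusted p 0.048). Its second probe set gave 1.93 under drought and -0.88 when watered. The drought call of the first was lost without C306 drought replicate 1 or either WL711 drought array (limma adjusted p up to 0.17).

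LOC543248 read 0.22 and 0.48 in droughted C306 and -0.50 and -0.22 in droughted WL711, a difference of 0.71 (limma adjusted p 0.040). In watered leaves C306 stood at -2.80 and -2.74 and WL711 at 0.58 and 0.74, a difference of -3.43. The 2 arrays of every group were close together, and most of the contrast lay in the watered plants. The drought difference exceeded the watered one by 4.14 (limma adjusted p 0.0017). Its drought call, just inside the threshold, was lost in 11 of 17 alternative settings. It was lost when any 1 of the 4 drought arrays was left out, with differences of 0.57 to 0.85. The block for low hybridisation controls also lost it (0.77, limma adjusted p 0.068). So did a fit on the 4 arrays compared, quantile normalization once more, and trend and robust moderation. Omission of either C306 control array and a minimum difference of 1 (log2) lost it too.

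LOC543236 and LOC543463 passed in opposite directions or leaned that way. LOC543236 was lower in droughted C306 (-1.15), at -0.43 and -0.17 against 0.67 and 1.03, and higher in watered C306 (1.14). The test of that turn gave a limma adjusted p of 0.069, and the drought call was lost without C306 drought replicate 1 or WL711 drought replicate 2 (limma adjusted p up to 0.13). LOC543463 was higher in droughted C306 on all 4 of its probe sets, by 0.82 to 1.04, and below 0 on all 4 in watered leaves, at -0.65 to -0.26, where 1 of 4 passed. The drought call of 2 of the 4 probe sets was lost when any 1 drought array was left out (limma adjusted p 0.085 to 0.15). Among the 17 called probe sets of the named genes 9 were called in the same direction in watered leaves and 8 had no call there. None differed between conditions by the test (limma adjusted p 0.18 to 0.91).

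Where a gene had several probe sets, they did not always tell the same story. Of 298 genes with 2 or more probe sets, 51 had a call, and in 17 of these every probe set was called. In 38 all probe sets had the same sign and in 13 the signs differed, but 0 genes were called in both directions. In 9 the probe sets of a gene were at least 2 apart. LOC100037541 stood at -8.16 on one probe set, reading -4.59 and -5.04 in C306 against 3.27 and 3.43 in WL711, and at -0.28 on the other. LOC543418 stood at 6.91 and -0.05, LOC606363 at -3.65 and 0.06, and LOC542898 at 3.05, 0.37 and 0.17. Whether such probe sets read different copies of a gene, or 1 of them reads a cultivar's sequence poorly, was not tested. For LOC780634, LOC543233, XIP-I and lgul every probe set was called in the same direction.

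**Figure D5:**
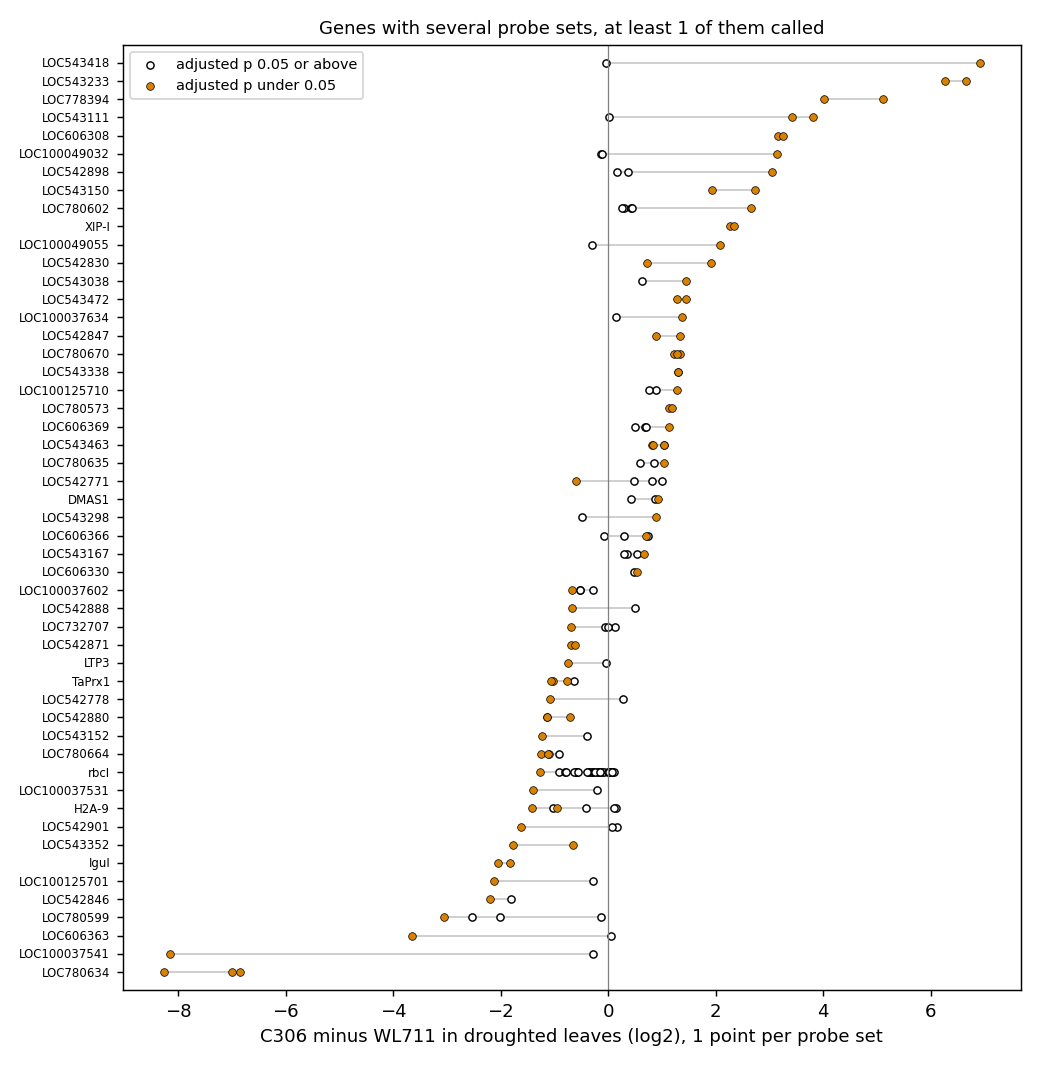
Difference between droughted C306 and droughted WL711 (log2, horizontal axis) for every probe set of the 51 genes that have several and at least 1 call, 1 row per gene. Filled points passed at an adjusted p under 0.05 and open points did not, and a grey line joins the probe sets of a gene. LOC780634 keeps its 3 points together at -8.27 to -6.84, while LOC100037541 and LOC543418 have one point far from 0 and one near it.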

How the data were processed

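The authors deposited log2 values for 61290 probe sets on 8 wheat arrays. Per the submitters' processing notes they come from RMA, which adjusts background, quantile-normalizes the arrays and summarises the probes of a set; its version is not given in the sources used here. Each probe set had a median of 0 across the arrays (largest absolute median 5e-07), so the values had been centred. Centring cancels in differences between arrays. The RNA was isolated with the Spectrum Plant kit and labelled with biotin, per the labels' protocols. The number of arrays limits the precision.

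The 111 control probe sets were left out. limma 3.58.1 in R 4.3.3 was fitted to all 8 arrays with 4 group means (residual degrees of freedom 4, prior 4.63), with Benjamini-Hochberg adjustment over 61179 probe sets. The 3 comparisons were the cultivar difference under drought, that in watered leaves, and the difference between these. SE is limma's moderated standard error. The fit was tested on simulated data. Since nothing states that replicates came from separate plants, p-values measure the spread between these arrays.

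Genes come from the platform annotation, and 770 of 771 were found in the gene table of IWGSC CS RefSeq v2.1, used for names and gene order. One probe set stands for a gene: plain _at first, then _a_at, _s_at and _x_at. Members, lists and the rule for named genes were chosen with earlier results of these data known. The rule took every descriptively named gene with a call, the 12 highest and 12 lowest called LOC genes with separate groups, the 2 extremes of each list, and the 2 highest and 2 lowest probe sets without a gene. It also asked for a product description of LOC genes; the table holds none, so that condition was dropped. For the same reason 7 of 19 lists matched no gene and the other 12 matched 24, so the 102 named genes were sorted into 21 lists by role afterwards. LOC100037541, LOC543248, LOC543150, LOC606363, LOC543236, LOC543463, LOC542898, LOC543472 and LOC542855, and uncalled genes of the lists, were picked with their values in view. A filter on dim probe sets is not possible on centred values. Alternatives were a replicate block, a block for the 3 arrays with low hybridisation controls, a fit on 4 arrays, 2 other normalizations, 2 other variance moderations, array weights, no _x_at, _s_at or _a_at probe sets, a minimum difference of 1 (log2), and each array left out in turn.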

Additional observations from a re-analysis of the deposited data

Results flagged for a closer look

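In 18 probe sets called between the droughted cultivars, the cultivar difference also differed between droughted and watered leaves by limma's test of the difference. Of these 16 had no gene.

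LOC543150 was one of the other two, with a drought difference 6.70 above the watered one (2.73 against -3.97). That call held in 8 of 17 alternatives and was lost in 9 (limma adjusted p 0.00084 to 0.22 over all 17). Those that lost it were array weights, robust moderation without a trend, the replicate block, and the omission of C306 control replicate 1, C306 drought replicate 1, either WL711 control array or either WL711 drought array. The size stayed between 5.93 and 7.47.

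LOC543248 was the other, with a drought difference 4.14 above the watered one (0.71 against -3.43). That call held in 15 of 16 alternatives and was lost with trend and robust moderation (limma adjusted p 0.31). The size stayed between 3.999 and 4.38. The call of LOC543248 between the droughted cultivars was itself lost in 11 of 17 alternatives.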

How the results depend on the processing

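The 4120 probe sets called between the droughted cultivars became 2604 with a minimum difference of 1 (log2), 7019 with array weights, 2475 with a block for the 3 arrays with low hybridisation controls, and 1626 to 4433 with 1 array left out. The fit made 1626 calls without C306 drought replicate 1, 2505 without C306 drought replicate 2, 1892 without WL711 drought replicate 1 and 1784 without WL711 drought replicate 2, of which 1564, 2205, 1789 and 1684 were among the 4120. With the block, 2408 of the 2475 were. The watered comparison, 6714 calls, gave 2971 with the same minimum, 3516 with array weights, 2965 in a fit on its 4 arrays, and 2854 to 9509 with 1 array left out. The 25 probe sets whose differences differed between conditions became 14 without _x_at, _s_at and _a_at probe sets and 2 to 199 with 1 array left out, 2 without WL711 control replicate 1 and 199 without C306 control replicate 2. The causes were not tested. Every other alternative left these 3 counts within 1.5 times, but a similar count did not always mean the same probe sets. With trend and robust moderation 30 probe sets differed between conditions, and only 5 of them were among the 25.

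The replicate number as a block gave 4015 drought calls, 5896 watered calls and 19 differing ones. Nothing in the labels says that the numbers pair the samples. Deviations of same-numbered arrays correlated at 0.112 between the droughted groups and at -0.093 to 0.020 between the other pairs of groups. Such low correlations over all probe sets cannot exclude a pairing that affects few of them.

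Of 59 called probe sets followed through up to 18 alternatives, 27 kept their call in all that held them, 32 lost it in at least 1, and 0 changed sign. WZF1, XIP-I, lgul and the called rbcl probe set were among the 27. Of 31 uncalled probe sets 6 passed in at least 1. The sign changed in 3 uncalled probe sets: tubb1 (0.0041 without C306 drought replicate 2, within a range of -0.99 to 0.0041 with 1 drought array left out), LOC543418 on Ta.24991.1.S1_x_at (0.036 without WL711 drought replicate 1) and LOC606363 on TaAffx.128418.102.S1_at (-0.13 with the low-hybridisation block, -0.15 without C306 drought replicate 2 and -0.17 without WL711 drought replicate 2, the lowest of a range that reached 0.29).

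With 2 arrays a group and centred values, signal over background is unknown, so a difference near the detection limit cannot be told from one between well-measured transcripts.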
